A study of Mus musculus with 2 samples.

Results

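Coding exon peaks are DNase I hypersensitive sites, stretches of open chromatin cut readily by the nuclease DNase I, whose midpoint lies inside the protein-coding sequence (CDS) of a gene and more than 1000 bp from every annotated transcription start site (TSS). They were chosen on chromosomes 1 to 19 by position alone, from the shorter of the 2 peak lists deposited for each library and the GENCODE M21 annotation of protein-coding genes on mm10, so no signal value entered the choice. By this rule, 1081 of 64912 peaks of biological replicate 2 and 392 of 28969 peaks of biological replicate 1 were coding exon peaks. The series holds 1 group, DNase-seq of frontal cortex tissue from female mice of the strain B6CASTF1/J, the first-generation cross of B6 and CAST, at an age of 36 days, untreated as far as the labels say. Its 2 libraries are biological replicates 2 and 1 of that group. Both carry the same donor label, and the labels do not say whether 1 animal or several gave the tissue. No treated or mutant group was sampled, so values are given per replicate, and as mean ± SD over the 2 replicates where that helps. An exact sign permutation test over 2 replicates cannot go below p = 0.5, and none was run. The tissue mixes neurons, glia and vessel cells, and fewer cells with an open site and a less open site in each cell cannot be told apart.

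As background, a codon sequence can at the same time hold the short motifs that transcription factors read, and such a factor can keep nucleosomes off a coding exon as it does in an intron or a promoter. DNase I cuts open DNA, and a footprint is a short run of bases within an open site that the enzyme cuts less than its surroundings, as a bound protein would leave it. CTCF is a zinc finger protein that organises chromatin loops and binds at a great many such places in mammalian genomes. CpG islands are stretches rich in the dinucleotide CpG that usually stay unmethylated and open, and in many developmental genes they run from the promoter into the coding exons.

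The sequences below come from 8 named peaks and show what these peaks look like on the coding strand, 5′ to 3′, in GRCm38 (mm10). The first 4 sets of 60 bases surround a match to the CTCF core motif, in capitals, that touched a footprint, by at least 1 base, in both replicates. They are the peaks of Synpo2l on the minus strand (chr14:20661138-20661197), Hey1 on the minus strand (chr3:8664668-8664727), Chpf on the minus strand (chr1:75477553-75477612) and Dgki on the minus strand (chr6:37097506-37097565).
Synpo2l: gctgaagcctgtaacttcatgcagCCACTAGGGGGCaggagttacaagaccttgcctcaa
Hey1: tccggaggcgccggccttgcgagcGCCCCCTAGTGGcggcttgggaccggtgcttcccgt
Chpf: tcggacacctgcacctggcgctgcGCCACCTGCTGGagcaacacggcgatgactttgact
Dgki: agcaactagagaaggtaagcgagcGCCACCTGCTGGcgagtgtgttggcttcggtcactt
The next sets of 150 bases are the centres of peaks among the 5 with the highest mean signal in both replicates, with capitals for the bases that lay under a footprint in both replicates. They are those of Angptl6 on the minus strand (chr9:20878236-20878385), Spi1 on the plus strand (chr2:91115166-91115315), Fbxl22 on the minus strand (chr9:66511726-66511875) and Stk35 on the plus strand (chr2:129801456-129801605).
Angptl6: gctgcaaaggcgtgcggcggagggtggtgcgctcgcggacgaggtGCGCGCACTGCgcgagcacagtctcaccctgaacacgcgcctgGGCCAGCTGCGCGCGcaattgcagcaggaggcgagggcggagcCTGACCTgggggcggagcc
Spi1: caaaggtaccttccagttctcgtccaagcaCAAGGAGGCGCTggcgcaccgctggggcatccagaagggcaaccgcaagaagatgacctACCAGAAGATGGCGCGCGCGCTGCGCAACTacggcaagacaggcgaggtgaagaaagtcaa
Fbxl22: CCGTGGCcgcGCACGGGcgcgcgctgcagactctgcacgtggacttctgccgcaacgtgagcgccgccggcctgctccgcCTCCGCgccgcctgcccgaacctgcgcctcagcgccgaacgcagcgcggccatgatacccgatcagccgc
Stk35: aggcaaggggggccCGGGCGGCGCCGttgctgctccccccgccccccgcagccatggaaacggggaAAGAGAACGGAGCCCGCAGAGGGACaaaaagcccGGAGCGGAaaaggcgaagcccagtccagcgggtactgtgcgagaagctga
The core stood wholly in coding sequence in Synpo2l, Hey1 and Chpf. In Dgki the peak spanned the whole of coding exon 4, which is 75 bp long, and 46.9% of the peak was coding. The core there had 0 of its bases in coding sequence, since it lay in the intron that follows.

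The coding exon peaks were scarce in number and dense for their space. They made up 1.67% of the peaks of replicate 2 (95% Wilson interval 1.57 to 1.77%) and 1.35% of the peaks of replicate 1 (1.23 to 1.49%), and these intervals cover counting error only. The coding bases more than 1000 bp from a TSS, called distal here, span 23.98 Mb, 0.974% of chromosomes 1 to 19. That gave 45.1 coding exon peaks per Mb in replicate 2 and 16.3 per Mb in replicate 1. Distal introns of protein-coding genes held 20.3 peaks per Mb in replicate 2 and 5.40 per Mb in replicate 1. The ratio of coding exon density to intron density was 2.22 in replicate 2 and 3.03 in replicate 1, 2.62 ± 0.57 (SD, n = 2). All densities here and below count every base of a class, also bases in repeats and assembly gaps where reads cannot be placed. How far such bases differ between the classes, and their part in the ratio, was not tested. Both replicates thus had the higher density in coding exons, and the SD between them is smaller than the distance of the mean from a ratio of 1. Untranslated and noncoding exons away from TSSs held 27.6 and 9.45 peaks per Mb in replicates 2 and 1, and sequence outside protein-coding genes held 14.9 and 4.94. Sequence within 1000 bp of a TSS held 163 and 111 peaks per Mb, the densest class.

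**Figure D1:**
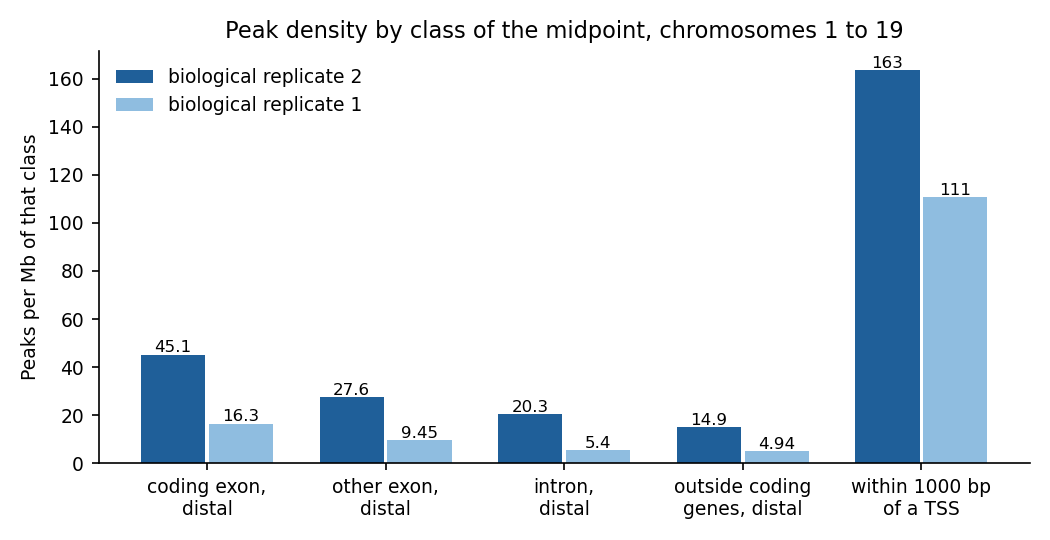
Peaks per Mb (vertical axis) by the class of the peak midpoint on chromosomes 1 to 19, with dark bars for biological replicate 2 and light bars for biological replicate 1; distal means more than 1000 bp from any TSS. Coding exons stood above every other distal class in both replicates, at 45.1 and 16.3 peaks per Mb, and below the sequence near TSSs.

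The cleavage table, made by the authors from the same alignments, gave a similar ratio. It holds an FDR for each interval, and 2.71% of distal coding bases in replicate 2 and 1.09% in replicate 1 had an FDR under 0.05. Distal intron bases passed in 1.19% in replicate 2 and 0.326% in replicate 1. The ratio was 2.27 in replicate 2 and 3.34 in replicate 1, 2.81 ± 0.76 (SD, n = 2). This is not an independent check of the peak lists. All 1081 coding exon peaks of replicate 2 and all 392 of replicate 1 held an interval with an FDR at or below 0.001, so both ratios share bases.

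The excess over introns was present at each distance from a TSS. At 1 to 2 kb the coding to intron ratio was 2.25 in replicate 2 and 3.57 in replicate 1, and beyond 50 kb it was 1.91 in replicate 2 and 2.38 in replicate 1. The densities themselves were highest close to TSSs: 27.2% of the coding exon peaks of replicate 2 and 36.7% of those of replicate 1 lay 1 to 2 kb away, against 15.9% of distal coding bases. The median distance to a TSS was 4239 bp in replicate 2 and 3111 bp in replicate 1. Peaks on either side of the 1000 bp limit are given as a description. In replicate 2, the 83 peaks at 1000 to 1200 bp had a median signal of 1.16, and the 112 coding exon peaks at 800 to 1000 bp, which the rule leaves out, had 1.13. In replicate 1 these medians were 0.960 for 44 peaks inside the rule and 1.10 for 63 outside it. The nearest peaks inside were those of Pim3 and Hcrt in replicate 2, at 1005 and 1007 bp with signals of 1.52 and 4.91, and those of Itgb8 and Man1a in replicate 1, at 1006 and 1007 bp with signals of 0.448 and 0.872. The nearest outside were those of Fam43a and Sowahc in replicate 2, at 1000 and 998 bp with signals of 1.29 and 0.806, and those of Sox4 and Msl3l2 in replicate 1, at 982 and 976 bp with signals of 1.17 and 0.884. RefSeq placed a TSS that GENCODE M21 lacks within 1000 bp of 77 coding exon peaks of replicate 2 (7.12%) and 35 of replicate 1 (8.93%), against 4.02% and 4.86% of intron peaks.

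Peaks were fewer per base in the shortest coding exons than in longer ones, and fewer in internal coding exons than in single, first and last ones. In exons of up to 200 bp, which hold 54.5% of distal coding bases, there were 34.6 peaks per Mb in replicate 2 and 10.7 in replicate 1. In exons of 500 to 1000 bp there were 75.2 per Mb in replicate 2 and 35.7 in replicate 1, the highest of the 5 length classes in both. Exons over 2000 bp fell back to 40.2 per Mb in replicate 2 and 21.5 in replicate 1. Single coding exons, the only one of their gene, held 100.8 peaks per Mb in replicate 2 and 52.2 in replicate 1. First coding exons held 78.1 and 42.2 per Mb in replicates 2 and 1, and last coding exons held 67.0 and 23.6. Internal coding exons, most of the distal coding sequence with 72.8% of its bases, held 33.7 per Mb in replicate 2 and 10.6 in replicate 1. Last coding exons thus took 27.9% of the assigned peaks in replicate 2 (25.3 to 30.7%) and 27.1% in replicate 1 (22.9 to 31.7%), against 18.6% of the distal bases.

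**Figure D2:**
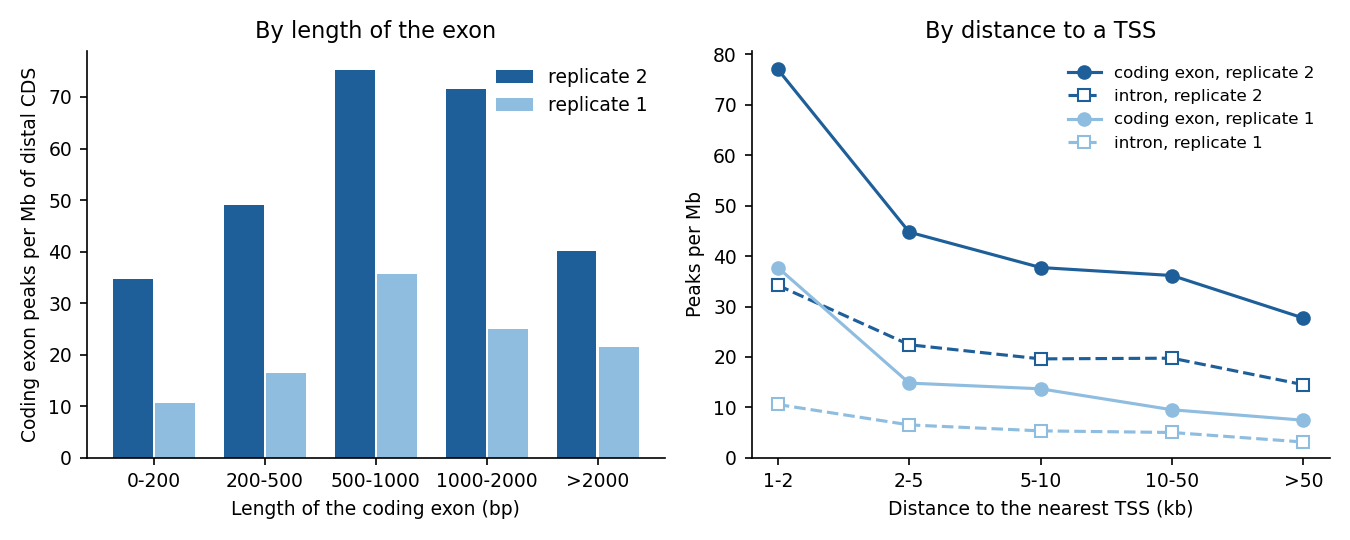
Left, coding exon peaks per Mb of distal CDS by the length of the exon in bp, with dark bars for replicate 2 and light bars for replicate 1. Right, peaks per Mb by distance to the nearest TSS in kb for coding exons (filled circles, solid lines) and introns (open squares, dashed lines); in each distance class and replicate the coding exon value is above the intron value, 77.0 against 34.2 per Mb at 1 to 2 kb in replicate 2.

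Many peaks reached beyond the exon that held their midpoint. In replicate 2, 478 peaks (44.2%) lay wholly inside a coding exon, 393 (36.4%) crossed 1 edge and 210 (19.4%) crossed both edges. In replicate 1, 214 (54.6%) lay wholly inside, 127 (32.4%) crossed 1 edge and 51 (13.0%) crossed both. Of all their bases, 79.9% in replicate 2 and 83.7% in replicate 1 were coding. The median width was 200 bp in replicate 2 and 172.5 bp in replicate 1. Peaks of a list can overlap each other: 35 coding exon peaks of replicate 2 (3.24%) and 28 of replicate 1 (7.14%) overlapped another coding exon peak of the same list, so peaks within a gene are not separate measurements.

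The authors' signal, a value per peak whose scaling no source here states, put 133 of the 1081 coding exon peaks of replicate 2 and 34 of the 392 of replicate 1 in the highest of 4 equal classes of all peaks. The median signal was 1.05 in replicate 2 and 1.04 in replicate 1, from 0.146 to 7.79 in replicate 2 and from 0.212 to 3.72 in replicate 1. Intron peaks had medians of 1.04 in replicate 2 and 1.13 in replicate 1, and peaks within 1000 bp of a TSS had medians of 1.76 and 1.65. The ratio of the coding exon median to the intron median was 1.01 in replicate 2 and 0.917 in replicate 1, 0.963 ± 0.066 (SD, n = 2), so it fell on either side of 1. The coding exon peaks with the highest signal in both replicates, chosen by that signal and so given as a description, were those of Angptl6, 1700008O03Rik, Spi1, Fbxl22 and Stk35. The peak of Angptl6, a secreted angiopoietin-like protein, reached 7.79 in replicate 2 and 3.37 in replicate 1 and lay wholly within the first of its 5 coding exons. The peak in the last of the 5 coding exons of Spi1, which encodes the DNA-binding ETS domain of the myeloid factor PU.1, had 5.05 in replicate 2 and 3.32 in replicate 1. Spi1 had no promoter peak in either replicate, and 0 of 3 microglial markers (Cx3cr1, P2ry12 and Csf1r) had one. The peak of the F-box gene Fbxl22 had 5.42 in replicate 2 and 2.65 in replicate 1, and that of the serine/threonine kinase gene Stk35 had 4.30 and 3.72. The peak in the gene 1700008O03Rik had 6.03 in replicate 2 and 2.97 in replicate 1. In each of these 5 peaks the value was higher in replicate 2, as it was in nearly all shared peaks.

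Replicate 2 gave more signal at the same places. Because that scaling is not stated, the ratio between libraries is a description. Of 318 coding exon peaks of replicate 1 with a partner in replicate 2, 95.6% had the higher signal in replicate 2, against 96.5% of shared peaks in all. The median log2 ratio of replicate 2 over replicate 1 was 0.62 (quartiles 0.40 and 0.81), a 1.53-fold difference. Intron peaks had 1.53-fold and peaks near TSSs 1.67-fold in the same direction. In 278 pairs both peaks were coding exon peaks, and in 267 of them the signal was higher in replicate 2. Pairs were made for each peak of replicate 1, and 1 peak of replicate 2 can be in several, as at Fzd8, Fjx1 and Pgr. The pairs are therefore not all separate, and 263 places held a coding exon peak in both replicates. The exceptions reached 0.719-fold at F12, the gene of a coagulation factor, with 1.07 in replicate 2 and 1.48 in replicate 1. The largest differences were 2.81-fold at Piezo2, the gene of a mechanosensitive channel, with 1.76 in replicate 2 and 0.624 in replicate 1, and 2.59-fold at Nup210l, with 1.55 in replicate 2 and 0.601 in replicate 1.

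How often a peak was found again differed with its signal and between the libraries. A partner, a peak of the other replicate that overlaps by at least 1 bp, was present for 301 coding exon peaks of replicate 2 (27.8%, 25.3 to 30.6%) and 318 of replicate 1 (81.1%, 77.0 to 84.7%). With an overlap of at least 50% of both peaks required, the shares were 17.5% in replicate 2 and 49.0% in replicate 1. Over all peaks, at 1 bp of overlap, the shares were 40.7% in replicate 2 and 92.5% in replicate 1. Intron peaks had a partner in 24.9% in replicate 2 and 94.0% in replicate 1. The peaks of replicate 1 were split into 4 equal classes by the signal of all peaks of the library. In the lowest class 62.6% of 147 coding exon peaks had a partner (54.5 to 70.0%), against 83.7% of intron peaks (81.6 to 85.7%). In the next class 119 of 135 coding exon peaks and 1554 of 1602 intron peaks had one, and the shares were 96.1% and 99.5% in the third. In the highest, 34 of 34 coding exon peaks had one. In replicate 2 the lowest class gave 14 of 311 coding exon peaks and 2.35% of intron peaks. The next classes gave 14.6%, 41.1% and 82.0% of coding exon peaks, against 10.6%, 37.8% and 80.8% of intron peaks. The share below that of introns was seen in the 3 lower classes of replicate 1, and in each class of replicate 2 the coding exon share was the higher of both. Peaks near TSSs had 72.0% in the lowest class of replicate 1, also below introns. In the next class they had 87.8%, against 88.1% of coding exon peaks. In replicate 2 peaks near TSSs were above coding exon peaks in each class, from 8.31% in the lowest to 94.2% in the highest. The list of replicate 2 was also cut by signal to the length of that of replicate 1, which lost no peak. The shares of coding exon peaks with a partner were then 57.8% in replicate 2 and 59.4% in replicate 1. For the 392 coding exon peaks of replicate 1 the lower share comes from the peaks taken out of replicate 2. Shares of intron peaks and of all peaks were not computed with this cut or with the 50% overlap, so these values do not set coding exon peaks apart.

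**Figure D3:**
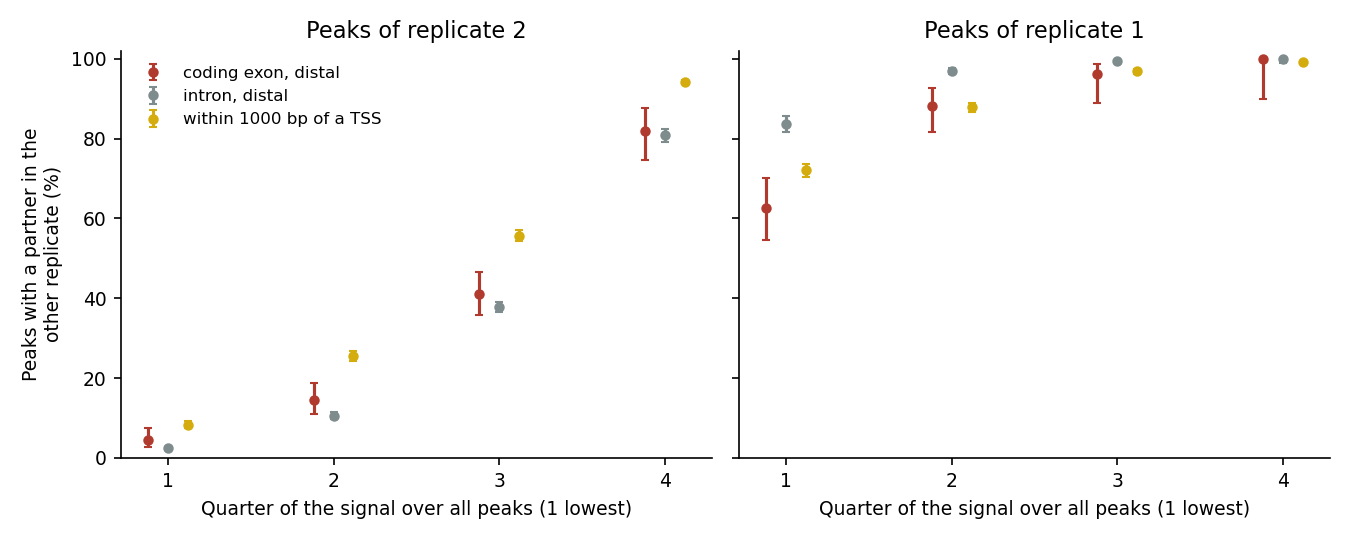
Share of peaks with a partner in the other replicate (vertical axis, %) for 4 equal classes of all peaks by signal, lowest at the left, in replicate 2 (left panel) and replicate 1 (right panel); points are coding exon peaks, intron peaks and peaks near TSSs, and bars are 95% Wilson intervals for counting error. In replicate 1 the lowest class shows 62.6% for coding exon peaks and 83.7% for intron peaks, and in replicate 2 the classes climb to 82.0% and 80.8%.

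Many peaks without a partner were met by other files of the other replicate. Of 780 such peaks of replicate 2, 349 (44.7%) met a peak in replicate 1's longer list, and 405 (51.9%) held a base with an FDR under 0.05 in replicate 1. Of 74 such peaks of replicate 1, 23 (31.1%) met a peak in replicate 2's longer list, and 45 (60.8%) held such a base there. The same shares are not given for intron peaks or all peaks without a partner. These values are therefore a description and do not set coding exon peaks apart. The highest without a partner in replicate 2 were those of Srcin1, a neuronal inhibitor of Src kinase, with 3.94, Ppp1r18 with 3.53 and Synpo, the gene of the actin-binding protein synaptopodin, with 3.19. In replicate 1 they were those of B430305J03Rik with 2.05, Zfp771 with 1.71 and Trp53i13 with 1.56. Pcdh10, an adhesion molecule of the protocadherin family, supplied 7 of the 74. Its first coding exon, 2688 bp long, held 6 of them with signals from 0.766 to 1.17 in replicate 1 (chr3:45379681-45381640). The peak at 45381181-45381400 lay within the one at 45381101-45381640, so the 6 are not all separate sites. The list of replicate 2 had 0 peaks there, while its longer list had 5 with signals from 1.12 to 1.24, above the median of 1.05 of the coding exon peaks in the list used. In replicate 1 the longer list had 5 peaks there and the list used had 6, so the longer list was not the other one with weaker peaks added. Without Pcdh10, 82.6% of 385 coding exon peaks of replicate 1 had a partner.

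Of the 18254 genes with distal coding bases, 949 held a coding exon peak in replicate 2 (5.20%), 329 in replicate 1 (1.80%) and 262 in both (1.44%). Most held only 1: 846 genes in replicate 2 and 288 in replicate 1 had 1 peak, while 25 and 12 genes had 3 or more. Tchh, the hair follicle protein trichohyalin, led with 6 peaks in replicate 2 and 7 in replicate 1, all in its second coding exon of 4659 bp on chromosome 3. The signals in Tchh were 1.21, 2.24, 1.17, 0.417, 1.91 and 1.87 in replicate 2, in order along the exon, and 0.990, 0.872, 0.884, 0.778, 0.542, 1.01 and 1.18 in replicate 1. The 2 lowest, 1 in each replicate, were the ones without a partner. The peak of 0.542, 56 bp wide, consisted wholly of 31-base words that occur again in the genome. Tchh had no promoter peak in either replicate. Fzd8, a Wnt receptor gene with a single coding exon of 2055 bp, had signals of 1.90, 1.89 and 1.74 in replicate 2 and of 1.48, 1.12, 1.02, 0.954 and 1.06 in replicate 1. Irf2bpl, also a gene with a single coding exon, had 3 peaks in replicate 2 with signals from 0.893 to 2.49 and 4 in replicate 1 from 0.990 to 1.37. Fjx1, a gene of the four-jointed family with a single coding exon, had 4 in replicate 2 from 1.11 to 1.57 and 3 in replicate 1 from 0.884 to 1.02. Some peaks of Tchh, Fzd8 and Fjx1 overlap within the list of each replicate, as some of Pgr and Pcdh10 do in replicate 1, so the counts for these genes are not counts of separate sites. Syne1, which encodes the giant nuclear envelope protein nesprin-1, had a different layout, with its peaks in separate exons of its 145. Its peaks had 1.02, 3.59, 1.58 and 1.80 in replicate 2 in exons 124, 88, 54 and 42, and 1.70, 0.907 and 1.28 in replicate 1 in exons 88, 54 and 42. Pgr, the progesterone receptor, had 1 peak of 1.79 in replicate 2 and 3 from 1.12 to 1.32 in replicate 1, all in its first coding exon. Of the genes tied at 2 shared peaks, the 4 with the highest summed signal were Rin2, Dgki, F12 and Slc1a6, with 3, 2, 3 and 2 peaks in replicate 2 and 2 each in replicate 1.

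Gene families are described by their counts, beside the 5.20% and 1.80% of all genes with a coding exon peak in replicates 2 and 1, and by peaks per Mb of their distal coding sequence, which was 44.9 and 16.3 over all genes. Of the SOX, forkhead and POU genes, 13 of 65 had a coding exon peak in replicate 2 and 5 of 65 in replicate 1, which made 321 and 112 peaks per Mb. In Sox11, a neurogenic factor, 2 overlapping peaks of 1.07 and 1.13 in replicate 1 had partners in replicate 2 whose midpoints fell outside the rule. Sox8 held 3 peaks in replicate 2 and 1 in replicate 1, Pou3f2 held 2 and 2, and Pou1f1, a pituitary factor without a promoter peak here, held 1 and 1. Activity-regulated genes, induced by neuronal firing, had a peak in 6 of 20 genes in replicate 2 and 2 of 20 in replicate 1, or 348 and 174 per Mb. Klf4 had 0.835 in replicate 2 and 0.589 and 1.01 in replicate 1, Jun had 1.25 in replicate 1 and a partner in replicate 2 outside the rule, and Junb and Nptx2 had theirs in replicate 2 alone. Excitatory neuron genes had a peak in 3 of 18 in replicate 2 and 1 of 18 in replicate 1, or 223 and 37.2 per Mb. The cortical T-box factor Tbr1 was the one in both, with 1.20, 0.738 and 1.02 in replicate 2 and 0.825 in replicate 1, and Fezf2 and Neurod6 had theirs in replicate 2 alone. Synapse and ion channel genes had 6 of 38 in replicate 2 and 2 of 38 in replicate 1, or 64.1 and 40.1 per Mb, among them the active-zone gene Rims1 in both and Scn8a, Bsn and Cacna1b in replicate 2. Keratin genes had 5 of 48 in replicate 2 and 2 of 48 in replicate 1, or 119 and 47.7 per Mb, with Krt88 and Krt77 in both. Oligodendrocyte genes had 2 of 18 in replicate 2 and 1 of 18 in replicate 1, or 94.8 and 47.4 per Mb, Nkx2-2 in both and Olig2 in replicate 2. These 6 lists had more peaks per Mb than all genes in both replicates, but their counts are small and were not tested.

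Other lists lay on both sides of the density of all genes, or below it. Non-clustered protocadherins had a peak in 4 of 19 genes in replicate 2 and 2 of 19 in replicate 1, or 39.8 and 99.5 per Mb, Pcdh17 in both, Pcdh10 in replicate 1 and Fat4 and Pcdh20 in replicate 2. Pcdh10 alone, some of whose peaks overlap, held 7 of the 10 peaks of this list in replicate 1. Inhibitory neuron genes had 1 of 19 (Dlx5, 113 per Mb) and astrocyte genes 1 of 19 (Sox9, 46.9 per Mb) in replicate 2, both with 0 in replicate 1. Microglial genes had 1 of 18 (Spi1), or 39.0 per Mb, in both replicates. Chromatin regulators, with a median of 3.89 kb of distal coding sequence against 0.936 kb over all genes, had a peak in 5 of 33 in replicate 2 and 1 of 33 in replicate 1, with Ncor1 in both, yet per Mb they had 42.1 and 7.02, below all genes. Of 19 liver and muscle genes, 3 had a peak in replicate 2, Apoa1, Ryr1 and Ttn, and 1 in replicate 1, Apoa1, or 21.8 and 7.26 per Mb. The partner peaks of Apoa1 summed to a signal of 4.92 over both replicates. The zinc finger genes had a coding exon peak in 21 of 451 genes in replicate 2 and 6 of 451 in replicate 1, or 32.5 and 9.47 per Mb, with Zfp771, Zfp219, Zfp608 and Zfp64 in both. Olfactory receptor genes, with a median of 0.071 kb of distal coding sequence, had 1 of 271 in replicate 2 (Olfr95) and 0 of 271 in replicate 1, or 9.38 and 0 per Mb. The clustered protocadherins, with 87.6 kb of distal coding sequence, had 0 of 56 genes in both replicates, which allows a share of up to 5.36%. The HOX genes had 0 of 31 (up to 9.68%), the vascular genes 0 of 18 (up to 16.7%) and the housekeeping genes 0 of 16 (up to 18.8%). Each of these limits lies above the 5.20% of all genes, so a share of genes below that of all genes was not detectable for these 4 lists. The limits apply to shares of genes, and none was computed for their peaks per Mb, which were 0 in both replicates. Collagen genes had 2 of 43 in replicate 2, Col6a3 and Col6a4, and 0 in replicate 1. The labelled tissue was checked by promoter peaks, and 6 of 9 telencephalic and excitatory markers had one in replicate 2 and 2 of 9 in replicate 1, Tbr1 and Neurod6 in both, against 1 of 6 markers of other organs in replicate 2 and 0 of 6 in replicate 1. Over all genes with distal coding bases 65.3% had one in replicate 2 and 55.6% in replicate 1, so the cortical markers were near that share in replicate 2 and below it in replicate 1, and the check does not establish the tissue. Slc17a7, Neurod2, Bcl11b, Gad1 and Gad2 had none, in either replicate.

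The sequence of the peaks differed from that of other coding exons. In the 200 bp around the midpoint the median GC content was 57.5% in replicate 2 and 59.5% in replicate 1, and the median CpG ratio, observed over expected, was 0.503 and 0.590. The 87163 distal coding exons of at least 100 bp that lay more than 500 bp from any peak had medians of 50% GC and 0.338. The CpG ratio was thus 0.165 higher in the peaks of replicate 2 and 0.252 higher in those of replicate 1. The exons without a peak were shorter, with a median of 153 bp, against 249 bp for the exons that held peaks in replicate 2 and 368.5 bp in replicate 1. The comparison was not matched for exon length or for distance to a TSS. Intron peaks had CpG ratios of 0.253 in replicate 2 and 0.274 in replicate 1. Windows with a GC content over 50% and a CpG ratio over 0.6, as in a CpG island, made up 35.2% of the peaks of replicate 2 (32.4 to 38.05%) and 46.4% of those of replicate 1 (41.6 to 51.4%). In coding exons without a peak they were 5.77%, and in intron peaks 4.19% in replicate 2 and 7.05% in replicate 1. Near TSSs they were 62.7% and 75.1%. The CpG ratio also moved with exon length. In exons of up to 200 bp its median was 0.398 in the peaks of replicate 2 and 0.404 in those of replicate 1, closer to the 0.338 of all exons without a peak. In exons of 500 to 1000 bp it was 0.690 in replicate 2 and 0.802 in replicate 1. The part of exon length in the CpG difference, and the part of the CpG ratio in the densities, were not tested. Of the peaks, 93.0% in replicate 2 and 92.6% in replicate 1 held no 31-base word that occurs elsewhere in the genome, against 95.4% and 95.6% of intron peaks.

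**Figure D4:**
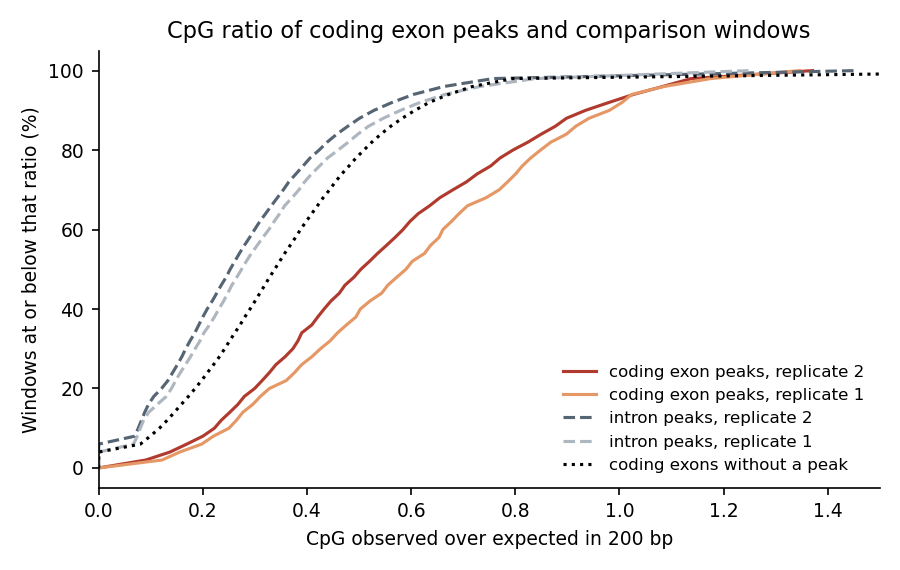
Cumulative share of windows (vertical axis, %) by the CpG observed over expected ratio of 200 bp (horizontal axis) for coding exon peaks and intron peaks of both replicates and for coding exons without a peak. Both coding exon curves lie to the right of the others, with medians of 0.503 in replicate 2 and 0.590 in replicate 1 against 0.338 in exons without a peak. The exons without a peak were not matched for length and were shorter.

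Of 25 motifs searched on both strands, the CTCF core had the highest ratio to coding exons without a peak in both replicates. It was present in 53 windows of replicate 2 (4.90%, 3.77 to 6.36%) and 33 of replicate 1 (8.42%, 6.06 to 11.6%), against 77 of the 87163 exons without a peak (0.0883%), a ratio of 55.5 in replicate 2 and 95.3 in replicate 1. With the longer lists the shares were 3.62% in replicate 2 and 4.83% in replicate 1. Intron peaks held it still more often, in 8.12% in replicate 2 and 17.2% in replicate 1. Among windows that were not island-like the core was in 5.42% of the peaks of replicate 2 and 12.9% of those of replicate 1, against 0.0925% of exons without a peak. Within the coding exon peaks, 49 of 54 matches in replicate 2 and 29 of 35 in replicate 1 touched a footprint. These matches per base of footprint were 73.5 times as dense as the other matches per base outside in replicate 2 and 39.1 times in replicate 1. In intron peaks the ratios were 76.0 and 40.3. In coding exon peaks they rest on only 5 and 6 matches outside. A match that touches a footprint can have most of its bases outside it, which raises such ratios. The 278 shared pairs held 31 core matches, of which 27 touched a footprint in both replicates, 30 in at least 1, and 15 of those 30 ran along the coding strand. Matches were counted for each pair, so a match in overlapping peaks can count more than once. To touch means at least 1 shared base, and the footprints of the replicates need not overlap each other. The 5 with the highest signal were in Synpo2l, the gene of an actin-associated protein, with 4.20 in replicate 2 and 2.29 in replicate 1, Hey1, a repressor downstream of Notch, with 3.52 and 2.44, Chpf, of chondroitin synthesis, with 3.19 and 2.64, Epg5, of autophagy, with 3.13 and 2.32, and Dgki, a diacylglycerol kinase, with 2.88 and 2.46. Their peaks were higher in replicate 2 in 5 of 5 cases. A match is a description of letters, and binding of CTCF was not measured.

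Some motifs that contain CpG, those of NRF1, EGR and the GC box, were more frequent than in exons without a peak in both replicates. CRE was in 6 windows of replicate 2 (0.555%, 0.255 to 1.21%) and 4 of replicate 1 (1.02%, 0.398 to 2.59%). In exons without a peak it was in 0.285%, which the interval of replicate 2 holds. The ETS motif (ccggaagt), which also contains CpG, was in 4 windows of replicate 2 (0.370%, 0.144 to 0.948%) and 2 of replicate 1 (0.510%, 0.140 to 1.84%). Both intervals hold the 0.544% of exons without a peak, so a difference was not detectable. The YY1 motif (aanatggcg) and a partial REST motif lay on either side, YY1 with 0.278% and 0.510% against 0.426%, and REST with 0.278% and 0 against 0.0597%. The NRF1 motif was in 2.68% of the peaks of replicate 2 and 4.34% of replicate 1, against 0.104% of exons without a peak, and in 0.268% and 0.604% of intron peaks. The EGR motif GCGNGGGCG was in 3.42% and 4.34%, against 0.187% of exons without a peak, and in 0.583% and 1.03% of intron peaks. Within island-like windows alone, NRF1 was in 6.58% of the peaks of replicate 2 and 8.79% of replicate 1, against 0.875% of exons without a peak, and EGR in 7.37% and 9.34%, against 1.13%. Island-like intron peaks held NRF1 in 22 of 704 windows in replicate 2 (3.13%) and 17 of 315 in replicate 1 (5.40%). These shares lay below the 95% intervals of the coding exon shares (4.5 to 9.53% and 5.48 to 13.8%), only just so in replicate 1. Such intron peaks held EGR in 6.11% and 6.67%, within the intervals for EGR (5.15 to 10.4% and 5.91 to 14.4%), so that difference was not detectable. The intervals leave out the counting error of the intron shares, and neither difference from intron peaks was tested. Over all windows the GC box GGGCGG was in 18.4% and 19.6%, against 4.51%. The E-box CAGCTG was in 27.0% and 22.4%, against 16.2% of exons without a peak and 19.5% and 17.9% of intron peaks. AP-1 motifs (TGANTCA) behaved otherwise: 6.85% and 5.61% of coding exon peaks held one, against 4.52% of exons without a peak and 13.6% and 9.55% of intron peaks. MEF2 motifs were in 0.925% and 1.28% of coding exon peaks, against 1.35% of exons without a peak and 3.20% and 2.77% of intron peaks. The homeobox letters TAATTA were in 0.833% and 0.510%, against 2.36% of exons without a peak. Motifs share letters and overlap, as GC box and EGR do, and no match says only that these letters are not in the window.

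**Figure D5:**
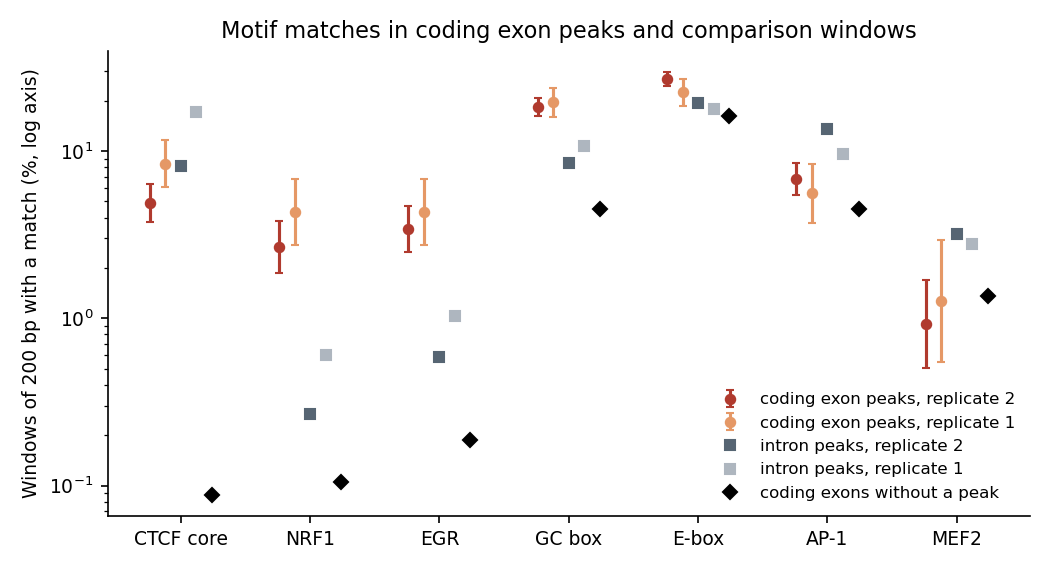
Share of 200 bp windows with a motif match (vertical axis, %, log scale) for 7 motifs, with circles for coding exon peaks of replicates 2 and 1 (bars are 95% Wilson intervals), squares for intron peaks and diamonds for coding exons without a peak. The widest gap between coding exon peaks and exons without a peak is at the CTCF core, 4.90% and 8.42% against 0.0883%. The CTCF core, AP-1 and MEF2 all lie higher in intron peaks than in coding exon peaks, the CTCF core with 8.12% and 17.2%.

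Most of these peaks held a footprint. At least 1 footprint lay in 887 peaks of replicate 2 (82.1%, 79.7 to 84.2%) and 300 of replicate 1 (76.5%, 72.1 to 80.5%), against 83.8% and 84.0% of all peaks and 86.8% and 86.5% of intron peaks. There were 10.5 footprints per kb of peak in replicate 2 and 9.38 in replicate 1, against 11.3 and 11.5 in intron peaks. The 2487 footprints in coding exon peaks of replicate 2 and 757 of replicate 1 had a median length of 9 bp in both. Within the same peaks they were denser in the coding bases than in the flanking intron, at 11.0 per kb against 8.14 per kb in replicate 2 and 9.80 against 7.38 in replicate 1, ratios of 1.36 and 1.33. Midpoints lie in coding sequence by the rule, so the coding bases are also nearer the centre of each peak, and this was not separated. Of the footprints, 86 in replicate 2 (3.46%) and 26 in replicate 1 (3.43%) crossed an edge of the coding sequence. In peaks with a partner, 37.8% of footprints of replicate 2 and 55.2% of those of replicate 1 overlapped a footprint of the other replicate, against 43.3% and 68.3% in intron peaks.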

How the data were processed

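DNase-seq of 2 frontal cortex libraries was analysed from deposited files on mm10, per the labels. The signal of a peak, as deposited by the authors, is a value per peak with no stated scaling (the text listing beside it names a read-depth normalized track for each library, not analysed here), the deposited footprint score is 0.01 in every row, and the deposited cleavage table carries an FDR-adjusted p-value for each interval. The aligner, peak caller and footprint caller are not stated in the labels or the listing. The depth is unknown, since totals of the libraries were not analysed here. Each library has 2 peak lists, and the shorter was used.

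Midpoints were placed with GENCODE M21 on chromosomes 1 to 19 in the order within 1000 bp of a TSS, coding exon, other exon, intron, elsewhere. Sequence features use 200 bp around the midpoint in GRCm38. Intervals are 95% Wilson intervals. Only the 31-base words of the peaks were counted over the genome. The class assignment was tested on simulated peaks. Python 3.11.15, numpy 2.4.6, pandas 2.3.3 and scipy 1.17.1 were used.

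The members, gene lists and motifs were chosen with earlier results of these data known. Named genes were the 10 with most shared peaks (ties by summed signal), the 5 shared peaks with highest mean signal, the 3 highest without a partner per replicate, the 5 highest shared peaks with a CTCF core touching a footprint, up to 4 genes per list, and the peaks nearest the 1000 bp limit. F12, Piezo2 and Nup210l as extremes of the replicate ratio, and the layout of Pcdh10, were chosen after their values were seen. The named CTCF core was searched as a fixed consensus on both strands. Alternatives were the longer list, TSS distances of 500 and 2000 bp, stricter CDS overlap, protein-coding TSSs only, equal list lengths, a reciprocal overlap of 50%, the 50% of peaks with the highest signal, other windows, all CDS intervals for the exon class, and each replicate left out; RefSeq TSSs were added after seeing the data. Sequences are from the RefSeq copy of GRCm38.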

Additional observations from a re-analysis of the deposited data

How the results depend on the processing

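No paired analysis was possible because there is only 1 group. The ratio of coding exon signal to intron signal, 0.963, was 0.917 to 1.01 with each replicate left out and so crossed 1. No other result changed direction, and 88 of 104 alternative values stayed within a set limit. That limit was the SD between replicates, 1.5 times the value reported for counts, or the quartile range over shared peaks for the signal ratio between replicates. With 2 replicates, leaving 1 out moves a mean by less than that SD by arithmetic. For shares and ratios these values therefore could not fall outside the limit, and they say nothing about stability. The mean number of coding exon peaks was 736.5, 1652 with the longer lists and 379.5 with equal list lengths, and 392 to 1081 with each replicate left out. Their share of all peaks was 1.94% with the longer lists, 2.18% beyond 500 bp and 1.03% beyond 2000 bp. The share with a footprint was 66.4% with the longer lists, 73.0% beyond 500 bp and 86.6% with equal list lengths. The CpG ratio difference was 0.276 beyond 500 bp. The last-exon share was 21.6% beyond 500 bp, 32.3% beyond 2000 bp, 28.4% with at least 50% of bases in coding sequence and 30.7% with equal list lengths. Genes with a peak in both replicates, 262, were 689 with the longer lists, and with 1 replicate left out the genes with a peak in the replicate kept were 329 to 949. The mean share with a partner, 54.5%, was 33.2% with a reciprocal overlap of 50%, and the mean share with a CTCF core, 6.66%, was 4.22% with the longer lists, both within the SD between replicates but over 1.5 times lower. Depth is unknown, so the larger list of replicate 2 cannot be told apart from deeper sequencing.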
